A study of Mus musculus with 10 samples.

Results

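Wnt signalling was examined in the dorsal root ganglia (DRGs) of Lkb1 KO and WT embryos through 41 genes, out of 19938 measured. They are all genes whose symbol is Wnt, Fzd, Dkk or Sfrp followed by a number, with Axin2, Lef1, Wif1 and Nkd1 added, and each gene was read from 1 probe set, the brightest of those annotated to that gene alone. There were 19 Wnt ligand genes, 10 Frizzled (Fzd) receptor genes, 4 Dickkopf (Dkk) genes, 4 secreted Frizzled-related protein (Sfrp) genes and the 4 added genes.

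Wnt proteins are lipid-modified secreted ligands that bind Frizzled receptors at the cell surface. Together with the co-receptors Lrp5 and Lrp6 they keep β-catenin from being degraded, so that it enters the nucleus and acts with DNA-binding factors of the TCF/LEF group, while other ligand and receptor pairs act on cell polarity and axon guidance without β-catenin. Sfrp proteins and Wif1 bind the ligand, Dickkopf proteins bind the co-receptors, and Axin2 and Nkd1 are feedback inhibitors inside the cell that the pathway itself switches on. In the embryo the pathway is known for inducing the neural crest, from which the neurons and glia of the DRG arise, and for directing crest cells toward the sensory lineage.

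The study deleted floxed Lkb1 (gene symbol Stk11, a kinase upstream of AMPK) with a Wnt1-Cre transgene, which is active in neural crest cells, in the midbrain and in the dorsal neural tube, and compared the resulting Lkb1 KO embryos with WT littermates of mixed genetic background. DRGs were taken at E13.5 and pooled from 2 embryos per sample, giving 5 Lkb1 KO and 5 WT pools, each labelled from 250 ng of total RNA and hybridised to 1 one-colour array. Values are log2 expression levels, so that a difference of 1 is a doubling, and n counts pools. The sources used here do not say whether the WT embryos carried the Cre transgene, so an effect of Cre and an effect of losing Lkb1 cannot be told apart. Wnt1 belongs to the genes described here and its regulatory sequences also drive the Cre. In whole ganglia, fewer cells of a type and less RNA per cell cannot be told apart.

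The arrays were close in overall brightness, with medians from 6.50 to 6.57, and Stk11 was lower in each of the 5 Lkb1 KO pools (7.68 to 7.94) than in any WT pool (8.51 to 9.08), although whether its probes fall in the deleted exons was not checked. The 5 sensory neuron markers measured, among them Isl1, Prph, Tubb3 and Stmn2, had probe set means from 9.19 to 13.00. The 4 glial and neural crest markers measured, among them Sox10 and Fabp7, had means from 7.33 to 13.54. All were above the median gene mean of 6.73, as the DRG label would have it. The mesenchymal gene Postn (11.96) and the endothelial gene Emcn (10.88) were bright too, so these levels cannot show that the pools held ganglia alone. The pools differed in the sex of their embryos, which the labels do not give. Lkb1 KO replicates 2 and 5 lacked Y-linked signal, with Eif2s3y at 4.66 and 4.90 against 9.75 or more in every other pool. Xist, which silences 1 X chromosome in females, was at 11.70 or more beside Y-linked signal in 2 WT pools (replicates 2 and 4) and in 2 Lkb1 KO pools (replicates 1 and 4), and at 5.46 or less in 3 WT pools (replicates 1, 3 and 5) and in Lkb1 KO replicate 3. For the Wnt pathway genes that passed the test, the difference between genotypes is also given within sets of pools, as a description with no test. The sets are the pools with both signals (2 Lkb1 KO against 2 WT) and the pools without Xist (1 Lkb1 KO against 3 WT).

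Most genes of the group did not pass the test between genotypes, and those that did were mostly higher in Lkb1 KO. Of the 41 genes, 6 were higher in Lkb1 KO (Lef1, Dkk2, Wnt5a, Fzd3, Wif1 and Fzd10), 1 was lower (Sfrp1) and 34 did not pass the test, an adjusted p under 0.05 from limma with Benjamini-Hochberg adjustment over all 19938 genes. Once Y-linked signal entered the limma fit, 3 were called higher (Lef1, Fzd3 and Dkk2) and Sfrp1 was no longer called (adjusted p = 0.0857). The log2 fold change was then -0.24 for Sfrp1, 0.31 for Wif1, 0.13 for Fzd10 and 0.35 for Wnt5a. Without the term it was -0.23, 0.33, 0.15 and 0.46. The standard errors were 0.06, 0.09, 0.04 and 0.10 with the term and 0.05, 0.08, 0.04 and 0.09 without it. In the fit without that term, the 7 are 17.1% of the group, where 3.87% of all genes tested were called in either direction, 2.49% as higher and 1.38% as lower. The 2 shares were not tested against each other. Genes with dim probe sets were called less often across the array, with 1.64% of those below the median gene mean of 6.73 and 6.10% of those above it, and only 12 of the 41 lay above that median. The median log2 fold change of the group was 0.05 and 29 of the 41 changes were positive, against a median of -0.0017 and 49.1% positive over all genes. The WT and Lkb1 KO values did not overlap for 8 of the 41, the 7 called genes and Wnt1, where 5.34% of all genes had groups that did not overlap, 3.09% with Lkb1 KO above and 2.24% with Lkb1 KO below.

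**Figure D1:**
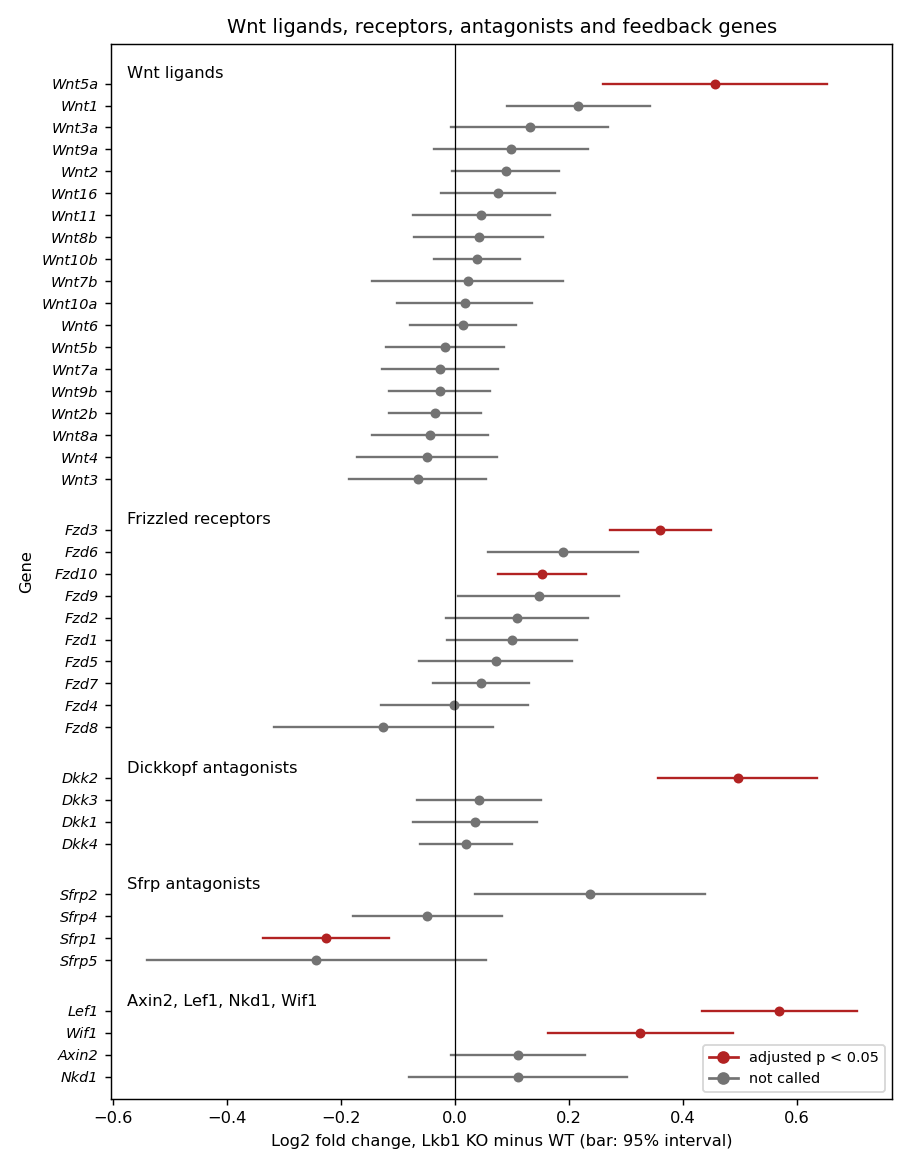
Log2 fold change (Lkb1 KO minus WT, horizontal axis) of each of the 41 genes with its 95% interval from limma, grouped by family and ordered by size. The 7 genes with an adjusted p under 0.05 are in red; 6 lie to the right of 0, Sfrp1 lies to the left, and the changes run from -0.24 (Sfrp5) to 0.57 (Lef1).

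Among the ligands, Wnt5a stood out, and the other 18 Wnt genes did not pass the test. Wnt5a encodes a ligand best known for signalling without β-catenin, in planar polarity and axon guidance. It was at 6.05, 6.35, 6.18, 6.08 and 6.27 in WT replicates 1 to 5 and at 6.61, 6.55, 6.43, 6.63 and 6.98 in Lkb1 KO replicates 1 to 5. Every Lkb1 KO pool was above every WT pool, and Lkb1 KO replicate 5 was the highest. The WT mean was 6.18 ± 0.13 and the Lkb1 KO mean 6.64 ± 0.20 (SD, n = 5 each), a log2 fold change of 0.46 (standard error, SE, 0.09, 95% interval 0.26 to 0.65, limma adjusted p = 0.0142) or 1.37-fold. An exact two-sided permutation test over the 252 ways of assigning the pools gave p = 0.00794, the smallest it can give. Every gene whose groups do not overlap (5.34% of all genes) gets this unadjusted p, so it only restates the separation. That test takes the pools as unpaired. If pools of the same replicate number are compared within their pair, 32 sign assignments are possible and the smallest two-sided p is 0.0625, which is the value for each of the 7 called genes, since all 5 pairs moved in 1 direction. The difference was 0.41 among the pools with both sex signals and 0.27 among the pools without Xist. It was 0.35 once the mean of the Y-linked genes entered the fit (adjusted p = 0.105), and the call was also lost in a per-gene analysis of variance (0.0879), within a range from 0.00488 to 0.105 over 21 alternatives. The close relative Wnt5b, also a ligand gene, had a log2 fold change of -0.02 (SE 0.05), and in each Lkb1 KO pool Wnt5a had moved up from its WT mean by more than Wnt5b had from its own, by 0.25 to 0.81, against -0.24 to 0.15 in the WT pools.

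Wnt1, a ligand gene of the dorsal midline of the neural tube that expands neural crest precursors, was dim. It was at 4.54, 4.42, 4.45, 4.54 and 4.39 in WT replicates 1 to 5 and at 4.89, 4.58, 4.66, 4.60 and 4.70 in Lkb1 KO replicates 1 to 5. The groups did not overlap, although the lowest Lkb1 KO pool was only 0.04 above the highest WT pool. Its log2 fold change of 0.22 (SE 0.06) missed the threshold with all pools (limma adjusted p = 0.0614), and passed it with the replicate number as a block (0.0254), with array medians aligned (0.0459) and with an intensity trend and robust prior (0.0352). Over 20 alternatives its adjusted p ran from 0.0254 to 0.149. Whether the Wnt1-Cre transgene adds to this signal was not tested.

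The other Wnt genes gave small differences. Apart from Wnt5a and Wnt1, the 17 ligand genes had log2 fold changes from -0.07 (Wnt3) to 0.13 (Wnt3a), with 10 positive, 7 negative and a median of 0.02. Wnt3a, a ligand of the β-catenin branch made by the dorsal neural tube, was at 4.77 to 4.88 (median 4.84) in WT and at 4.81 to 5.20 (median 4.93) in Lkb1 KO, and the groups overlapped. Wnt4, a ligand gene known from kidney and gonad development, was the only Wnt gene with a second probe set. It was at 6.79, 6.72, 6.58, 6.67 and 6.80 in WT replicates 1 to 5 and at 6.58, 6.54, 6.70, 6.71 and 6.78 in Lkb1 KO replicates 1 to 5. The groups overlapped across their whole range, with a log2 fold change of -0.05 (SE 0.06, limma adjusted p = 0.770) on this probe set and of -0.0002 (SE 0.04) on the dimmer one. Of the 19 Wnt probe sets, 6 were brighter than the level below which the dimmest 30% of genes fall (5.18) and none reached the median gene mean. Differences on dim probe sets can be compressed, and not passing the test does not show that these ligands were equal between genotypes.

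Of the receptor genes, Fzd3 and Fzd10 were higher in Lkb1 KO. Fzd3, which in mouse is needed for the growth of major axon tracts and for planar polarity, was at 9.65, 9.73, 9.77, 9.68 and 9.81 in WT replicates 1 to 5 and at 10.07, 10.16, 10.05, 10.05 and 10.11 in Lkb1 KO replicates 1 to 5. The highest WT pool was 0.24 below the lowest Lkb1 KO pool. The WT mean was 9.73 ± 0.06 and the Lkb1 KO mean 10.09 ± 0.05 (SD, n = 5 each), a log2 fold change of 0.36 (SE 0.04, 95% interval 0.27 to 0.45, limma adjusted p = 0.000302) or 1.28-fold. The exact permutation test gave the smallest p it can give, 0.00794. Fzd3 was called under each of the 21 alternatives, with an adjusted p of at most 0.00549, and the difference was 0.35 among the pools with both sex signals and 0.31 among those without Xist.

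Fzd10, a receptor gene known from the dorsal neural tube, changed by less, on a probe set below the median gene mean. The mean of that probe set, 5.29, was close to the 5.18 below which the dimmest 30% of genes fall. Fzd10 was at 5.25, 5.21, 5.18, 5.25 and 5.17 in WT replicates 1 to 5 and at 5.38, 5.36, 5.31, 5.38 and 5.41 in Lkb1 KO replicates 1 to 5. The groups did not overlap and each varied little, with SDs of 0.04 in both. The log2 fold change was 0.15 (SE 0.04, 95% interval 0.08 to 0.23, limma adjusted p = 0.0304), with an exact permutation p of 0.00794. The call was lost when any 1 of 8 pools was left out (WT replicates 2, 3, 4 and 5, with adjusted p of 0.0731, 0.0866, 0.0550 and 0.0613, and replicates 1, 2, 4 and 5 of Lkb1 KO, with 0.0509, 0.0684, 0.0555 and 0.0673), while the fold change stayed between 0.14 and 0.17 with any 1 pool left out. With Y-linked signal as a covariate the adjusted p was 0.163, and over the 21 alternatives it ran from 0.0242 to 0.163. The difference was 0.15 among the pools with both sex signals and 0.10 among those without Xist.

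Fzd6, the closest relative of Fzd3 in planar polarity and known for orienting hair follicles in mouse, did not pass the test. It was at 6.77, 6.70, 6.58, 6.72 and 6.95 in WT replicates 1 to 5 and at 6.96, 6.91, 6.84, 6.96 and 7.0 in Lkb1 KO replicates 1 to 5. WT replicate 5 lay within the Lkb1 KO range and the other 4 WT pools lay below it. Its log2 fold change was 0.19 (SE 0.06, limma adjusted p = 0.122), and it passed with the replicate block (0.0254) and without WT replicate 5 (0.24, adjusted p = 0.0208), over a range of adjusted p from 0.0208 to 0.307. The changes of Fzd3 and Fzd6 differed by 0.17 (SE 0.07), and this difference overlapped between WT and Lkb1 KO pools. For Fzd3 and Fzd7, a receptor of the β-catenin branch, the difference of changes was 0.32 (SE 0.03) with no overlap.

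Fzd9, a further receptor gene, was at 5.89, 5.75, 5.88, 5.88 and 5.81 in WT replicates 1 to 5 and at 6.19, 5.88, 6.03, 6.04 and 5.80 in Lkb1 KO replicates 1 to 5. The groups overlapped and the difference of 0.15 (SE 0.07, limma adjusted p = 0.302) did not pass. It was 0.10 without Lkb1 KO replicate 1 (adjusted p = 0.421), 0.25 with the Y-linked covariate (0.0519) and 0.24 without Lkb1 KO replicates 2 and 5 (0.0502). The 6 other receptor genes, Fzd1, Fzd2, Fzd4, Fzd5, Fzd7 and Fzd8, had log2 fold changes from -0.13 (Fzd8) to 0.11 (Fzd2). All 10 receptor probe sets were above the dimmest 30% of genes, and 8 of the 10 changes were positive, with a median of 0.10.

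**Figure D2:**
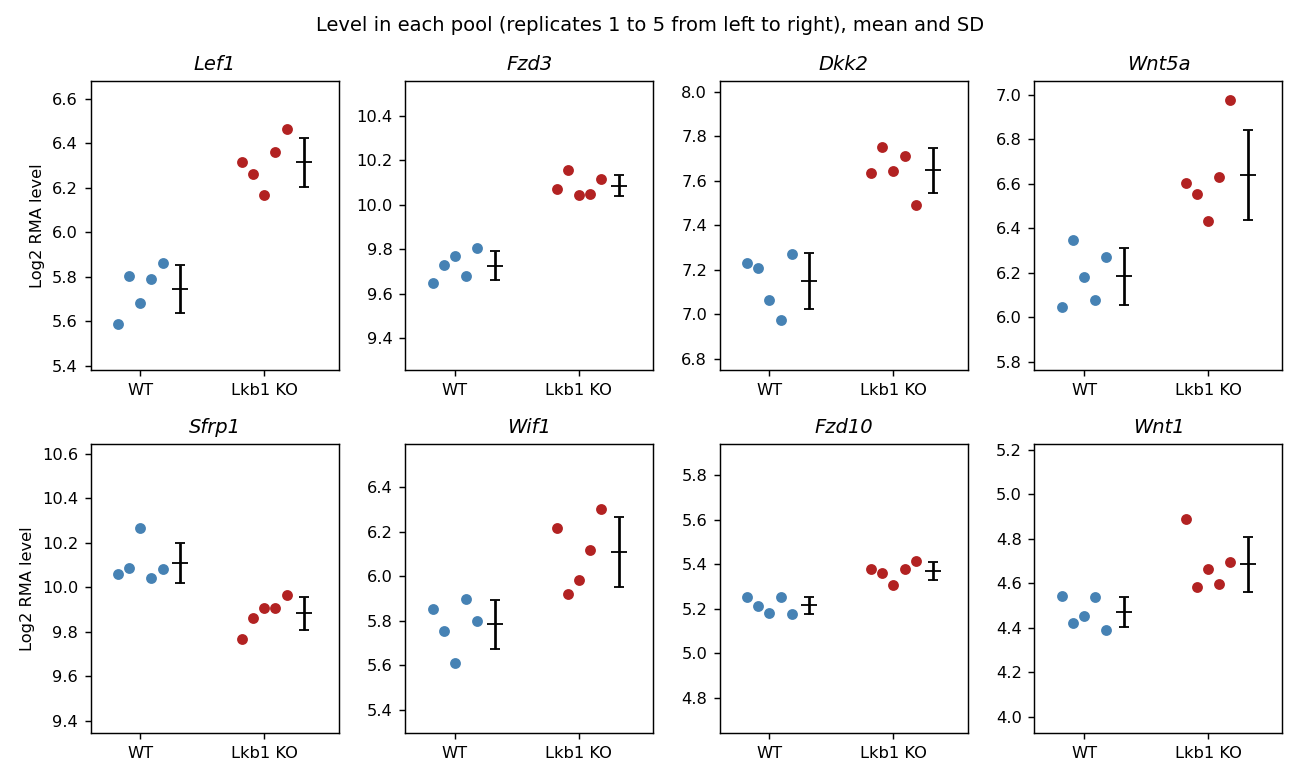
Log2 level in each pool for the 8 genes whose WT (blue) and Lkb1 KO (red) values did not overlap, replicates 1 to 5 from left to right, with mean and SD beside them. All panels span the same height on the log2 axis, so the separation of Lef1, from at most 5.86 in WT to at least 6.17 in Lkb1 KO, can be set beside that of Wnt1, from at most 4.54 to at least 4.58.

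Of the secreted antagonists, Dkk2 and Wif1 were higher in Lkb1 KO and Sfrp1 was lower. Dkk2 encodes a Dickkopf protein that binds Lrp5 and Lrp6 and can inhibit or promote signalling depending on the partner proteins present. It was at 7.23, 7.21, 7.06, 6.98 and 7.27 in WT replicates 1 to 5 and at 7.64, 7.75, 7.64, 7.71 and 7.49 in Lkb1 KO replicates 1 to 5. The groups were separated by 0.22, Lkb1 KO replicate 5 being the lowest of its group and WT replicate 5 the highest. The WT mean was 7.15 ± 0.12 and the Lkb1 KO mean 7.65 ± 0.10 (SD, n = 5 each), a log2 fold change of 0.50 (SE 0.06, 95% interval 0.36 to 0.64, limma adjusted p = 0.00084) or 1.41-fold, with an exact permutation p of 0.00794. Dkk2 was called under each of the 21 alternatives, with an adjusted p of at most 0.0157. The difference was 0.58 among the pools with both sex signals and 0.45 among those without Xist.

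The other Dickkopf genes did not pass the test. Dkk1, the archetypal inhibitor of the co-receptors, was at 5.12 to 5.34 in WT and 5.16 to 5.37 in Lkb1 KO, with overlapping groups and a log2 fold change of 0.03 (SE 0.05, limma adjusted p = 0.821). Dkk3, a divergent family member, had 0.04 (SE 0.05, adjusted p = 0.778) and Dkk4, an inhibitor on a dim probe set, 0.02 (SE 0.04, adjusted p = 0.874). The change of Dkk2 exceeded that of Dkk1 by 0.46 (SE 0.07) and that of Dkk3 by 0.45 (SE 0.09), and neither difference overlapped between WT and Lkb1 KO pools. Upstream sequences of Dkk2 and Dkk1, a pair of genes of 1 family with unlike values, are given from RefSeq on GRCm38.p6 as the 250 bases before the annotated start. Capitals mark a match to CTTTGAT or CTTTGTT, the core recognised by TCF/LEF factors, searched on both strands from 250 bases before to 50 bases after each start. The motifs differ in 1 letter, so both cannot match at 1 position.
Dkk2 (chr3:132085042-132085291, plus strand): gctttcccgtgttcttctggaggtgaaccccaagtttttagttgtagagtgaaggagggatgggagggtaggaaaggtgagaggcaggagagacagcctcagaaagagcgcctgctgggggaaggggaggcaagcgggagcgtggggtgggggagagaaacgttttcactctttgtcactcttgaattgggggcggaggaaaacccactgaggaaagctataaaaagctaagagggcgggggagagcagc
Dkk1 (chr19:30549497-30549746, minus strand): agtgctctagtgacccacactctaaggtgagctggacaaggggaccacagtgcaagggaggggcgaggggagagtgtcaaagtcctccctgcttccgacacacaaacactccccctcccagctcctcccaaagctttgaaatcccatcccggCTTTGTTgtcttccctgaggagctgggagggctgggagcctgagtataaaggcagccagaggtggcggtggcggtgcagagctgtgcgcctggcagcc
The window of Dkk1 held 1 match, CTTTGTT, whose first base lay 98 bases before the start, and that of Dkk2 held none. A window was found for 29 of the 41 genes. Matches stood in 5 of the 29 (Dkk1, Fzd7, Wnt3, Wnt5b and Wnt11), where 10.6% of 27025 genes and 9.33% of 32851 windows held one. None of those 5 genes passed the expression test. Of the called genes, Lef1, Dkk2, Fzd10 and Wif1 had a window and none of these held a match, which says only that these letters are not in those windows.

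Wif1 encodes a secreted factor that binds Wnt ligands through a domain of its own. It was at 5.85, 5.75, 5.61, 5.90 and 5.80 in WT replicates 1 to 5 and at 6.22, 5.92, 5.98, 6.12 and 6.30 in Lkb1 KO replicates 1 to 5. The groups did not overlap, but Lkb1 KO replicate 2 was only 0.02 above WT replicate 4. The log2 fold change was 0.33 (SE 0.08, 95% interval 0.16 to 0.49, limma adjusted p = 0.0304) or 1.25-fold, with an exact permutation p of 0.00794. The call was lost without WT replicate 2 (0.0756), 3 (0.0795) or 5 (0.0521) and without Lkb1 KO replicate 1 (0.0605), 4 (0.0654) or 5 (0.0610), with fold changes from 0.28 to 0.33 in these fits. Over the 21 alternatives the adjusted p ran from 0.00524 to 0.132, the highest being with the Y-linked covariate. The difference was 0.34 among the pools with both sex signals and 0.23 among those without Xist.

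Sfrp1 was the 1 gene of the group that passed the test as lower in Lkb1 KO, among 12 with a negative change. It encodes a soluble protein with a Frizzled-like domain that binds Wnt ligands, and was at 10.06, 10.09, 10.27, 10.04 and 10.08 in WT replicates 1 to 5 and at 9.77, 9.86, 9.91, 9.91 and 9.97 in Lkb1 KO replicates 1 to 5. The lowest WT pool was 0.08 above the highest Lkb1 KO pool, and WT replicate 3 stood above the other 4. The WT mean was 10.11 ± 0.09 and the Lkb1 KO mean 9.88 ± 0.07 (SD, n = 5 each), a log2 fold change of -0.23 (SE 0.05, 95% interval -0.34 to -0.12, limma adjusted p = 0.0271), with an exact permutation p of 0.00794. The call was lost without WT replicate 2 (0.0571), without WT replicate 3 (log2 fold change -0.19, 0.0521), and without Lkb1 KO replicate 2 (0.0678) or 3 (0.0518), over a range of adjusted p from 0.0156 to 0.0857 in the 21 alternatives. The difference was -0.23 both among the pools with both sex signals and among those without Xist.

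The 3 other Sfrp genes, all of them encoding soluble ligand-binding proteins, did not pass. Sfrp2 was at 7.67, 7.55, 7.77, 7.68 and 7.77 in WT replicates 1 to 5 and at 7.63, 8.23, 7.95, 7.80 and 8.03 in Lkb1 KO replicates 1 to 5. Lkb1 KO replicate 1 lay within the WT range and the other 4 lay above it, with a log2 fold change of 0.24 (SE 0.09, limma adjusted p = 0.230). Without Lkb1 KO replicate 1 it was 0.31 (adjusted p = 0.0467). With the Y-linked covariate it was 0.11 (0.645) and without Lkb1 KO replicates 2 and 5 it was 0.10 (0.579). Over the 21 alternatives the adjusted p ran from 0.0467 to 0.645. The changes of Sfrp1 and Sfrp2 differed by -0.46 (SE 0.10), with no overlap between the WT and Lkb1 KO pools. Sfrp5, singled out after its values were seen, was at 9.17, 9.24, 9.33, 9.23 and 8.56 in WT replicates 1 to 5 and at 8.72, 8.89, 9.08, 8.59 and 9.04 in Lkb1 KO replicates 1 to 5. WT replicate 5 was below every Lkb1 KO pool and the other 4 WT pools were above every one. Its log2 fold change of -0.24 (SE 0.14, limma adjusted p = 0.460) became -0.38 without WT replicate 5 (adjusted p = 0.0441, the lowest of a range up to 0.704). The changes of Sfrp1 and Sfrp5 differed by 0.02 (SE 0.16), and this difference overlapped between WT and Lkb1 KO pools. Sfrp4 had a log2 fold change of -0.05 (SE 0.06, adjusted p = 0.787).

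Inside the cell, Lef1 changed the most of the group. Lef1 encodes a DNA-binding factor that carries β-catenin to its target genes and is itself a target of the pathway in many tissues. It was at 5.59, 5.80, 5.68, 5.79 and 5.86 in WT replicates 1 to 5 and at 6.31, 6.26, 6.17, 6.36 and 6.46 in Lkb1 KO replicates 1 to 5. The groups were 0.31 apart, from 5.86 in WT replicate 5 to 6.17 in Lkb1 KO replicate 3. The WT mean was 5.74 ± 0.11 and the Lkb1 KO mean 6.31 ± 0.11 (SD, n = 5 each), a log2 fold change of 0.57 (SE 0.06, 95% interval 0.43 to 0.71, limma adjusted p = 0.000236) or 1.48-fold, with an exact permutation p of 0.00794. It was called under each of the 21 alternatives, with an adjusted p of at most 0.00782. The difference was 0.54 among the pools with both sex signals and 0.46 among those without Xist. The bases upstream of the first annotated start of Lef1 (RefSeq, GRCm38.p6) are shown because it had the largest change of the group.
Lef1 (chr3:131110047-131110296, plus strand): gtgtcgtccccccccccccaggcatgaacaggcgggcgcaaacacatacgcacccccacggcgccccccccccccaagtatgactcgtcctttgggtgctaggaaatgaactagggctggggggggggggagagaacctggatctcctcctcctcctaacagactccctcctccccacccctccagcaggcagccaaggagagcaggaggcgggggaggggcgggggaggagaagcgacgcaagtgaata
Of these 250 bases 66.4% are G or C, against 55.6% for Dkk2 and 60.8% for Dkk1, and there are no capitals since neither motif was found.

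The feedback genes Axin2 and Nkd1, which are read as general targets of β-catenin signalling, did not pass the test. Axin2 was at 6.52, 6.59, 6.52, 6.55 and 6.56 in WT replicates 1 to 5 and at 6.74, 6.75, 6.59, 6.47 and 6.74 in Lkb1 KO replicates 1 to 5. Lkb1 KO replicates 1, 2 and 5 stood above all WT pools, and replicate 4 stood below them. Lkb1 KO replicate 3 was level with the highest WT pool (6.5863 against 6.5857 in WT replicate 2). The log2 fold change was 0.11 (SE 0.05, 95% interval -0.0063 to 0.23, limma adjusted p = 0.365). Nkd1 was at 6.92, 6.90, 6.81, 6.94 and 7.08 in WT replicates 1 to 5 and at 7.13, 7.18, 6.98, 6.70 and 7.22 in Lkb1 KO replicates 1 to 5. Here too replicates 1, 2 and 5 of Lkb1 KO were above all WT pools and replicate 4 was below, while replicate 3 lay within the WT range. The log2 fold change of Nkd1 was 0.11 (SE 0.09, 95% interval -0.08 to 0.30, limma adjusted p = 0.646). Without Lkb1 KO replicate 4 the change of Nkd1 was 0.20 (adjusted p = 0.142) and without Lkb1 KO replicate 5 it was 0.07 (0.793), while that of Axin2 was 0.16 (0.0777) without Lkb1 KO replicate 4. With the Y-linked covariate the changes were 0.04 for Axin2 (adjusted p = 0.786) and 0.0001 for Nkd1 (1), and without Lkb1 KO replicates 2 and 5 they were 0.05 (0.728) and 0.0064 (0.982). In the fit with all pools, the change of Lef1 exceeded that of Axin2 by 0.46 (SE 0.08), that of Tcf7l1 by 0.60 (SE 0.07) and that of Tcf7l2 by 0.44 (SE 0.08), the last 2 being factor genes of the same DNA-binding group. None of these differences overlapped between WT and Lkb1 KO pools, which in part restates the separation of Lef1 itself.

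Most other genes of the pathway did not pass the test. Of 57 other pathway genes in a list by role, 55 were measured, and 2 were higher, 1 was lower and 52 did not pass, which is 5.45% against 3.87% of all genes. Apcdd1, a membrane-bound inhibitor that binds Wnt ligands and Lrp co-receptors, was at 8.69, 8.47, 8.23, 8.54 and 8.53 in WT replicates 1 to 5 and at 9.27, 8.94, 9.02, 9.13 and 9.14 in Lkb1 KO replicates 1 to 5. The groups did not overlap, and the log2 fold change was 0.61 (SE 0.08, limma adjusted p = 0.000951), with a call under each of the 21 alternatives. The difference of Apcdd1 was 0.69 among the pools with both sex signals and 0.54 among those without Xist. Lrp5, 1 of the co-receptor genes, was at 7.75, 7.76, 7.83, 7.79 and 7.93 in WT replicates 1 to 5 and at 8.08, 8.16, 7.91, 8.05 and 8.14 in Lkb1 KO replicates 1 to 5. Lkb1 KO replicate 3 lay just below WT replicate 5, and the log2 fold change was 0.26 (SE 0.05, limma adjusted p = 0.0161). The difference of Lrp5 was 0.29 among the pools with both sex signals and 0.07 among those without Xist, and without Lkb1 KO replicates 2 and 5 its adjusted p was 0.110, within a range from 0.00522 to 0.116. Tle2, a co-repressor that sits on TCF/LEF factors, was at 6.94, 6.74, 6.67, 6.84 and 6.67 in WT replicates 1 to 5 and at 6.64, 6.50, 6.53, 6.25 and 6.49 in Lkb1 KO replicates 1 to 5. The groups were 0.03 apart, with a log2 fold change of -0.29 (SE 0.07, limma adjusted p = 0.0428). The difference of Tle2 was -0.35 among the pools with both sex signals and -0.23 among those without Xist. Its call was lost when 1 pool was left out, be it WT replicate 1 (0.0979), 2 (0.0832), 3 (0.0558) or 4 (0.112), or replicate 2 (0.0843), 3 (0.0691), 4 (0.0701) or 5 (0.0770) of Lkb1 KO, over a range from 0.0207 to 0.144.

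The 15 cytoplasmic transducers, among them β-catenin itself (Ctnnb1), Gsk3b, Apc and the Dishevelled genes, had log2 fold changes from -0.10 to 0.12 and none passed. Of 6 genes that came closest to the threshold, the cell cycle gene and Wnt target Ccnd1 had a log2 fold change of 0.62 (SE 0.17, limma adjusted p = 0.0599), with Lkb1 KO replicate 2 at 10.61 and the other Lkb1 KO pools at 9.49 to 9.74, against 9.06 to 9.36 in WT. Without Lkb1 KO replicate 2 the change was 0.43 and passed (adjusted p = 0.00601, in a range up to 0.305). In all, Ccnd1 passed under 7 of the 21 alternatives. Among them were the replicate block (0.0101) and the fit without Lkb1 KO replicate 1 (0.71, adjusted p = 0.0358). Porcn, the enzyme that attaches the lipid to Wnt proteins, had -0.18 (SE 0.05, adjusted p = 0.0669). It passed under 3 of the 21 alternatives, among them without WT replicate 5 (-0.21, adjusted p = 0.0225, in a range up to 0.208). The target gene Tnfrsf19 had 0.21 (adjusted p = 0.0618), the planar polarity cadherin gene Celsr1 -0.27 (0.0864), the co-repressor gene Tle4 -0.16 (0.117) and the secreted BMP and Wnt antagonist gene Sostdc1 0.41 (0.125). These 4 passed with the replicate block (0.0268, 0.0378, 0.0297 and 0.0018). Sostdc1 also passed without WT replicate 1 (0.0444) and without Lkb1 KO replicate 5 (0.0455), the highest adjusted p of the 4 over their alternatives being 0.292 (Sostdc1).

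**Figure D3:**
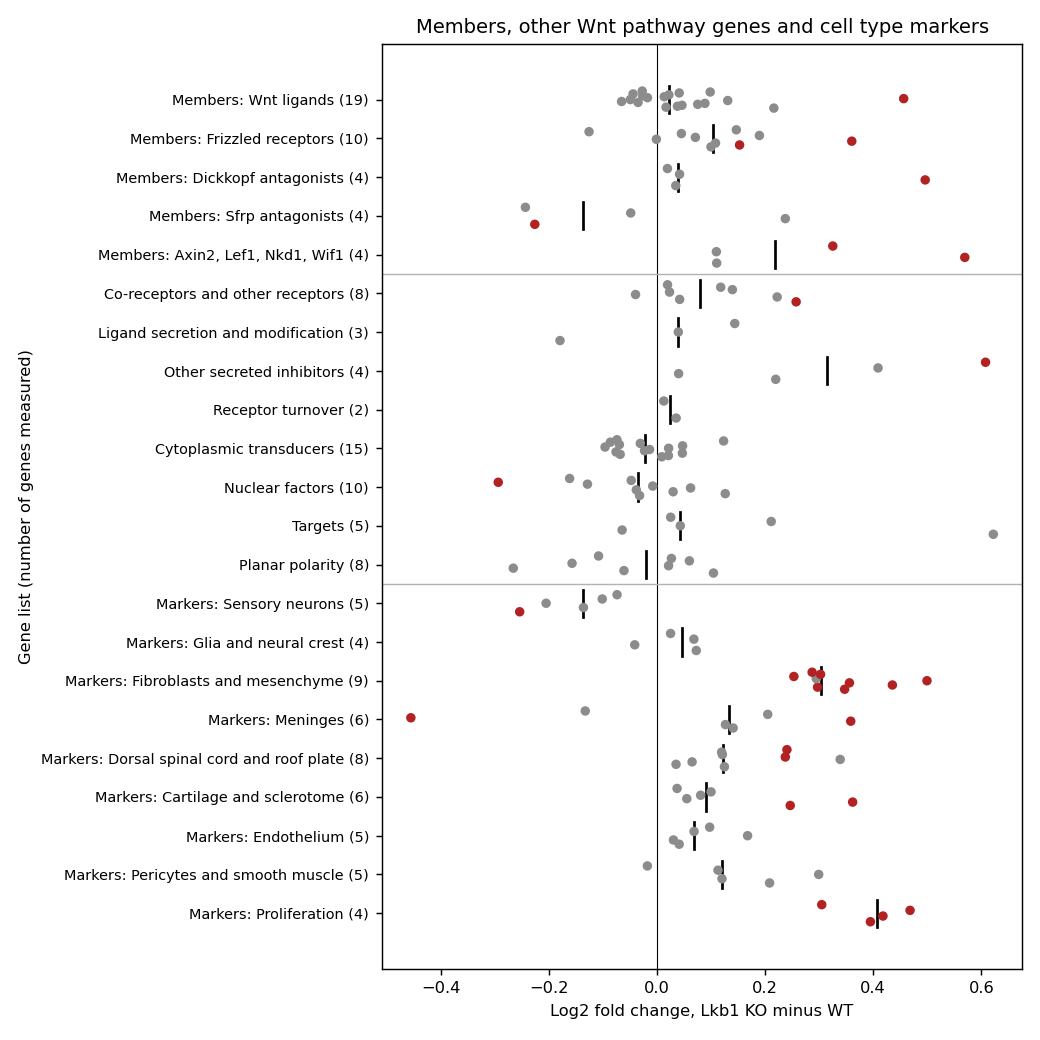
Log2 fold change (Lkb1 KO minus WT, horizontal axis) of every measured gene of the 5 families (top), the other Wnt pathway genes by role (middle) and cell type markers (bottom), with the number of genes in brackets. Red points have an adjusted p under 0.05 from limma, grey points do not, and black bars are medians. All fibroblast and mesenchyme, proliferation, dorsal spinal cord and roof plate, cartilage and sclerotome, and endothelial markers lie to the right of 0. So do all Dickkopf genes, Axin2, Lef1, Nkd1 and Wif1, the other secreted inhibitors and the receptor turnover genes. All sensory neuron markers lie to the left of 0.

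Some lists of cell type markers also differed between the genotypes. Of 9 fibroblast and mesenchyme markers, 8 were higher in Lkb1 KO and 0 lower, with the mean over the list at 8.86 to 8.98 in the WT pools and 9.21 to 9.30 in the Lkb1 KO pools. All 4 measured proliferation markers were higher (list means 8.91 to 9.11 and 9.32 to 9.56). Of 8 dorsal spinal cord and roof plate markers 2 were higher (Pax6 and Pax2, list means 5.45 to 5.53 and 5.58 to 5.75). All 8 changes were positive, from 0.04 (Olig3) to 0.34 (Pax3, adjusted p = 0.0845). Of the 8, 5 had an unadjusted limma p under 0.05, where 15.3% of all genes did. Of the 8 probe sets, 3 (Pax3, Sox2 and Pax2) were brighter than the dimmest 30% of genes, and Atoh1 and Olig3 were the dimmest, with means of 4.55 and 4.47. Of 6 cartilage and sclerotome markers 2 were higher (Col2a1 and Sox9), of 6 meningeal markers 1 was higher and 1 lower with overlapping list means, and of 5 endothelial, 5 pericyte and 4 glial markers none was called. Of 5 sensory neuron markers 1 was lower (Isl1, -0.25) and none was higher, with list means of 11.39 to 11.48 in WT and 11.24 to 11.32 in Lkb1 KO. All 5 of these changes were negative, and 3 had an unadjusted limma p under 0.05. Wnt5a, Dkk2 and Sfrp2 are also known from embryonic mesenchyme. The part of these cell types in the differences of the Wnt pathway genes was not tested.

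**Figure D4:**
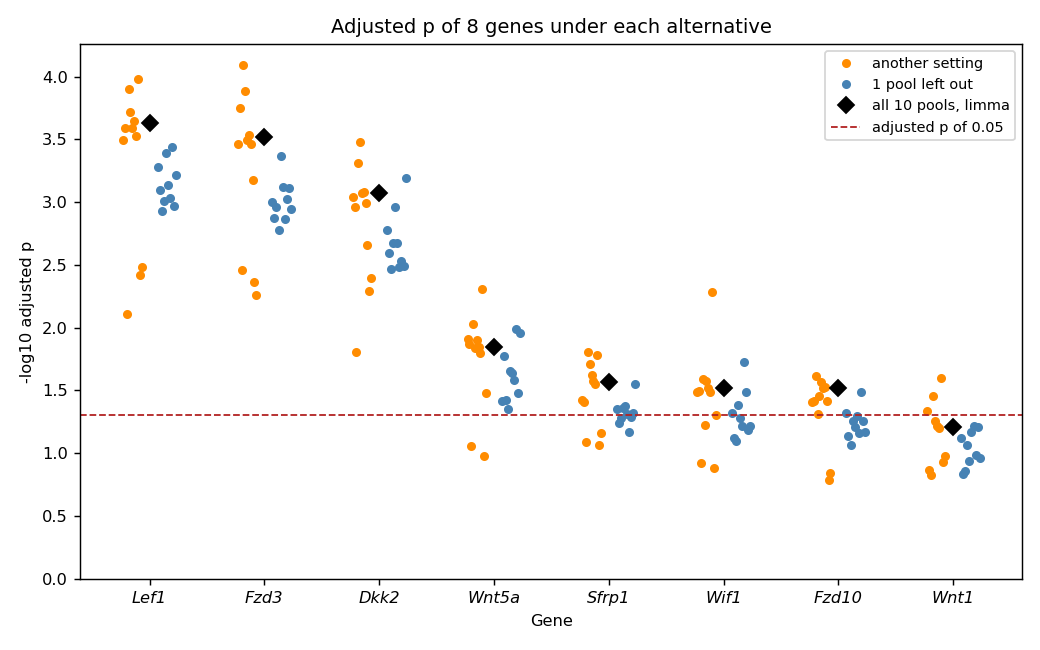
Minus log10 of the adjusted p (vertical axis) of the 8 genes with groups that did not overlap, with all 10 pools (black diamond), under other settings (orange) and with 1 pool left out (blue). Lef1, Fzd3 and Dkk2 stay above the dashed line at 0.05 throughout, Wnt5a drops below it under 2 settings, and Sfrp1, Wif1, Fzd10 and Wnt1 have points on both sides.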

How the data were processed

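Expression was measured in 10 DRG pools, 5 Lkb1 KO and 5 WT, with group and replicate number taken from the sample titles. The deposited table, made by the authors, holds log2 expression levels (35556 probe sets). In their processing notes the submitters name Partek 6.6 and RMA, a method of background correction, quantile normalization and probe set summary. The methods name MATLAB with a false discovery rate of 0.01, a stricter limit than the 0.05 used here. Of the 7 called genes, Lef1, Fzd3 and Dkk2 had a limma adjusted p under 0.01. Quantile normalization gives all arrays 1 distribution, so a shift shared by most genes cannot be seen. Scanner files were not used here, and depth has no counterpart on arrays, whose number limits the precision.

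By platform annotation, 21789 probe sets had 1 gene, 1621 had more than 1 and 12146 had none listed. The brightest probe set by mean was kept for 999 genes that had several, giving 19938 genes. The genotypes were tested against each other in limma 3.58.1 (R 4.3.3; two-sided, all genes in 1 fit with lmFit and eBayes, no covariate), with p-values adjusted by Benjamini-Hochberg and called at an adjusted p under 0.05. Other steps used Python 3.11.15, pandas 2.3.3 and scipy 1.17.1. The fit was tested on simulated data. Differences between the changes of 2 genes are descriptions with a standard error over pools. Where 1 of the 2 genes already had groups that did not overlap, a lack of overlap in the difference in part restates that.

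Genes given pool by pool were those with an unadjusted p under 0.05 or with groups that did not overlap, the brightest probe set of each family, Axin2, Lef1, Wif1, Nkd1 and Wnt1, and of the other pathway genes the called ones and the 6 next by p. The genes, lists and rules were chosen with earlier results of these data known. Sequences and coordinates of the motif search come from RefSeq (GRCm38.p6) and not from the deposited table, for which no build is named here.

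WT and Lkb1 KO pools share replicate numbers. Deviations of same-numbered pools from their group means correlated across genes at 0.21 to 0.48. The pools were therefore treated as paired by number in the block fit, a pairing that rests on the values and not on the labels. Differently numbered pools reached -0.48 to 0.31.

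Alternatives changed the scaling (medians aligned, cyclic loess), the test (per-gene analysis of variance, robust prior with an intensity trend, weights per array), the features (without the dimmest 30%, probe sets averaged within genes, every probe set on its own), the model (replicate block, Y-linked signal as a covariate) and the pools (each left out in turn). Leaving out Lkb1 KO replicates 2 and 5 together was chosen after seeing the data.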

Additional observations from a re-analysis of the deposited data

Results flagged for a closer look

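Among 48 sets of 5 pools (15 genes of the group and 9 other pathway genes, in WT and in Lkb1 KO), 3 held a pool far from the other 4 by Dixon's ratio, which chance flags in about 1 of 20 sets. Sfrp1 was at 10.27 in WT replicate 3 and at 10.04 to 10.09 in the other WT pools (ratio 0.81). Sfrp5, a gene added after its values were seen, was at 8.56 in WT replicate 5 and at 9.17 to 9.33 in the others (0.79). Ccnd1 was at 10.61 in Lkb1 KO replicate 2, 1 of the pools without Y-linked signal, and at 9.49 to 9.74 in the others (0.77). The causes were not tested.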

How the results depend on the processing

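Of 503 single-gene values under the alternatives, 438 kept their side of the threshold, 42 lost the call, 23 gained it and 0 changed sign. Lef1, Fzd3 and Dkk2 were called under all 21. Over all genes, 496 were higher and 275 lower in Lkb1 KO. The analysis of variance gave 260 and 127, the Y-linked covariate 285 higher, the fit without Lkb1 KO replicates 2 and 5 288 and 171, and the replicate block 565 lower. Leaving out 1 pool gave 146 to 347 lower, at most 182 when it was 1 of WT 1 to 4 or of Lkb1 KO 3 and 4. Of the 41 Wnt genes, the Y-linked covariate left 3 of 6 higher (Lef1, Fzd3, Dkk2), and the replicate block, which pairs the pools, gave 8 higher (with Wnt1 and Fzd6) and 1 lower. The fit without Lkb1 KO replicates 2 and 5, chosen after seeing the data, left 5 of 6 higher. Fzd10 lost its call there (adjusted p = 0.145), and Wif1 was just under the threshold (0.0493). The 1 lower gene, Sfrp1, became 0 under the analysis of variance (0.0807), with the Y-linked covariate (0.0857) and without Lkb1 KO replicates 2 and 5 (0.0686), and 0 to 2 with 1 pool left out. Wif1 lost its call in the analysis of variance (0.12), with array weights (0.0592) and with the Y-linked covariate. Of the other pathway genes, 2 higher became 1 under the analysis of variance and with the Y-linked covariate and 6 with the block. The 1 lower became 0 under the analysis of variance, with the Y-linked covariate and without Lkb1 KO replicates 2 and 5, 2 with medians aligned or array weights, 3 with the block and 0 to 2 with 1 pool left out. Wnt1 was not tested where the dimmest genes were left out. Among the 41 genes, the 55 other pathway genes and the 52 markers, the block took away 0 calls and added 2, 6 (Ccnd1, Tnfrsf19, Celsr1, Tle4, Sostdc1 and Ror1, the last at 0.0492) and 5 (Pdgfra, Aldh1a2, Pax3, Kdr and Pdgfrb). Causes were not tested. Of the 19 Wnt probe sets, 6 were brighter than the dimmest 30% of genes, which limits what these arrays show of the ligands.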
